A study of Gallus gallus with 5 samples.

Results

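Blastoderms of the chicken (Gallus gallus) stored for 7 days at 24 °C were compared with blastoderms incubated for 4 h at 37 °C. The blastoderm is the disc of embryonic cells that lies on the yolk of a laid egg. The members of the comparison are 2 of the 5 libraries of the series, chosen by the temperature and time in their labels and not by any measured value. The other 3 libraries came from unstored blastoderms and from blastoderms stored for 7 days at 4 °C or at 16 °C, and their values are set beside the members' values. All 5 libraries were made from poly(A)-selected RNA, with 1 library per condition. The sources used here do not give the number of blastoderms in a library or the breed. No test, p-value or standard deviation between replicates can therefore be given, and each difference is a difference between libraries with no replicate check. The library stored at 24 °C and the incubated library differ in temperature and in time at once, so effects of warmth and of duration cannot be told apart.

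A laid egg that is kept cool pauses its development, a state called embryonic dormancy or diapause, and warmth restarts it. At laying the blastoderm consists of an epiblast, an epithelial layer from which the embryo forms, with a hypoblast spreading below it. After warming, cells move inward through the primitive streak to form mesoderm and endoderm. Room temperature is commonly described as close to the lowest temperature at which avian development can proceed.

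Values are FPKM, fragments scaled by transcript length and by mapped fragments, summed over the deposited transcripts that carry the same gene symbol. Differences are log2 ratios of FPKM + 1, written as storage at 24 °C over incubation, so that a negative value is a higher level in the incubated library. This scale understates differences of genes with low values. A gene counts as higher or lower where the ratio reaches 2-fold, with FPKM above 0 in both libraries. The depth behind a value is unknown, and a gene at exactly 0 is described only as listed at 0. In whole blastoderms, fewer cells of a type and less RNA per cell cannot be told apart.

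The tissue was checked against its markers. NANOG and EPCAM, genes of the pluripotent epiblast, stood at 223 and 411 FPKM in the library stored at 24 °C and at 357 and 391 FPKM in the incubated library. DNMT3B, LIN28A, SOX3 and CDH1 also exceeded 10 FPKM in both libraries. SOX2 was at 0.09 and 0.17 FPKM, and POU5F3 was not analysed here. FPKM summed to 333528 in the library stored at 24 °C and to 360456 in the incubated library, within the range of 333528 to 389061 over the 5 libraries. Genes at 1 FPKM or more numbered 7134 and 7220.

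Of 7702 genes compared, 416 were at least 2-fold higher after storage at 24 °C (5.40%) and 785 were at least 2-fold lower (10.2%). Either direction together took 15.6% of the genes. Higher genes thus made up 34.6% of those past 2-fold. The median log2 ratio of all genes was -0.09, with quartiles of -0.55 and 0.33 and a standard deviation of 0.71 over genes. Among 500 genes at 100 FPKM or more in either library, 12 were higher and 50 lower. The higher share was 2.4%, below the 5.40% of all genes, while the lower share was close to the 10.2% of all genes. With median-ratio size factors, which change the scaling between libraries alone, 473 genes were higher and 676 lower, so that 41.2% of the genes past 2-fold were higher. With FPKM rescaled to 1000000 per library, 790 were higher and 880 lower of 8541 compared (47.3% higher), and the median of all genes moved by 0.11 to 0.02. The latter also raises every value before the pseudocount and the filter apply. The shares of 5.40% and 10.2% and the median of -0.09 are the background for every gene group that follows.

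**Figure D1:**
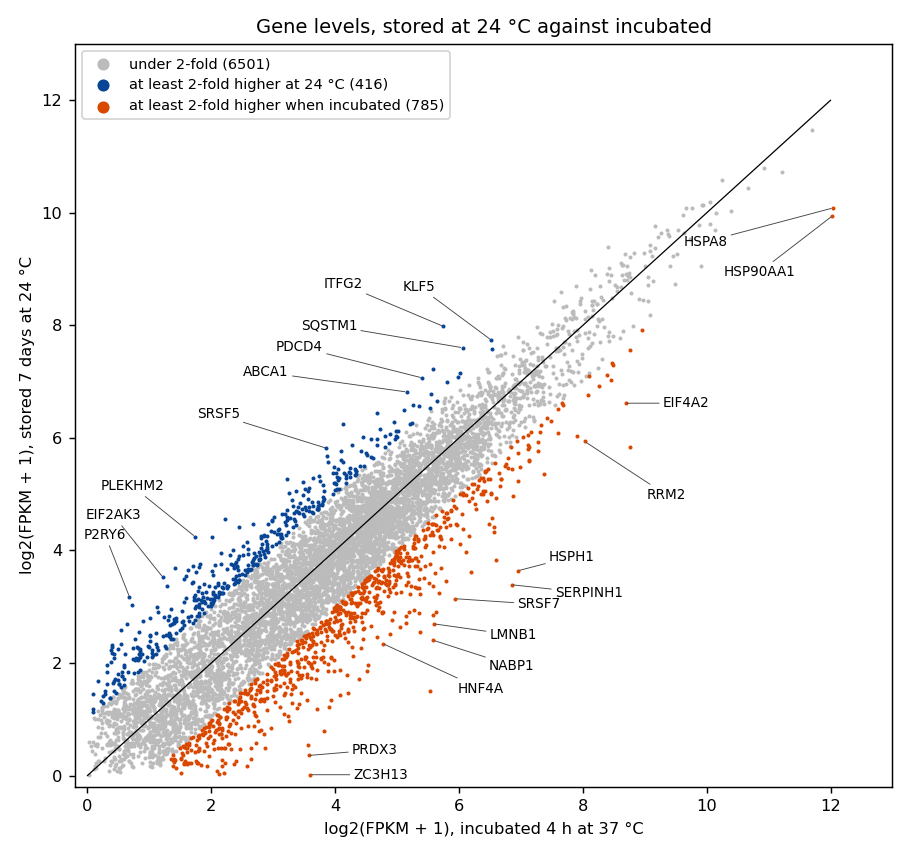
Each point is 1 of 7702 genes, with log2(FPKM + 1) in the incubated library on the horizontal axis and in the library stored at 24 °C on the vertical axis, and the line marks equal levels. HSPA8 and HSP90AA1, the 2 genes with the highest level in the incubated library, lie below the line. The level of HSP90AA1 is a sum of 2 rows.

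The largest differences lay on the side of the incubated library. SERPINH1, also called HSP47, the collagen chaperone of the endoplasmic reticulum, had FPKM of 27.6 in the unstored library, 47, 6.27 and 9.49 after storage at 4, 16 and 24 °C, and 114 in the incubated library, a log2 ratio of -3.46. Its level in the incubated library was above that of the 4 others, and the libraries stored at 16 and 24 °C were the lowest. LMNB1, a B-type lamin of the nuclear envelope, had FPKM of 23.4 in the unstored library, 34.5, 5.61 and 5.48 after storage at 4, 16 and 24 °C, and 47.3 in the incubated library (-2.9). Its level was highest in the incubated library too, and nearly equal at 16 and 24 °C, where it was lowest. NABP1, a single-stranded DNA-binding protein of DNA repair, was at 4.29 at 24 °C and 47 in the incubated library (-3.18), and TRPV6, a calcium channel, at 0.46 at 24 °C and 10.8 in the incubated library (-3.02). LRWD1, a protein bound to the origin recognition complex, was at 4.87 at 24 °C and 40.4 in the incubated library (-2.82), RNF207 at 0.74 at 24 °C and 13.1 in the incubated library (-3.02), and FAM120C at 13.3 at 24 °C and 96.3 in the incubated library (-2.77). ZC3H13, a subunit of the complex that writes N6-methyladenosine on RNA, was listed at 0 in the unstored library and after storage at 4 and 16 °C, was at 0.01 after storage at 24 °C and at 11.1 in the incubated library (-3.58). Its values come from 1 transcript row.

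On the opposite side, PLEKHM2, which couples lysosomes to kinesin motors, had FPKM of 3.78 in the unstored library, 3.91, 16.8 and 18 after storage at 4, 16 and 24 °C, and 2.33 in the incubated library, a log2 ratio of 2.51. The libraries stored at 16 and 24 °C were high and the other 3 low. P2RY6, a receptor for UDP, was at 8.02 at 24 °C and 0.6 in the incubated library (2.5). EIF2AK3, or PERK, the endoplasmic reticulum kinase that slows translation under folding stress, stood at 5.73 in the unstored library, 3.69, 26 and 10.5 after storage at 4, 16 and 24 °C, and 1.32 in the incubated library (2.31), highest at 16 °C. PELI2, a ubiquitin ligase of Toll-like receptor signalling, was at 17.8 at 24 °C and 3.05 in the incubated library (2.22). FAM69B was at 22.6 at 24 °C and 3.65 in the incubated library (2.34), C10orf71 at 7.17 at 24 °C and 0.64 in the incubated library (2.32), REEP2, a shaper of endoplasmic reticulum membranes, at 11.9 at 24 °C and 1.67 in the incubated library (2.27), and RAB3B, a GTPase of regulated secretion, at 9.32 at 24 °C and 1.44 in the incubated library (2.08). Among abundant genes, ITFG2, a subunit of the KICSTOR complex that restrains mTORC1 when nutrients are scarce, had FPKM of 61.7 in the unstored library, 57.9, 102 and 252 after storage at 4, 16 and 24 °C, and 52.6 in the incubated library (2.24), spread over 5 transcript rows. Most of this came from 1 transcript, at 201 after storage at 24 °C and 30.3 in the incubated library.

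Other genes at 100 FPKM or more were also higher after storage at 24 °C. ABCA1, which exports cholesterol, had FPKM of 101 in the unstored library, 82, 136 and 112 after storage at 4, 16 and 24 °C, and 34.6 in the incubated library (1.66), and the incubated library was the low one. PDCD4, an inhibitor of the translation helicase eIF4A, stood at 47.9 in the unstored library, 57.1, 92.4 and 133 after storage at 4, 16 and 24 °C, and 41.4 in the incubated library (1.66), with the 2 warmer storage libraries high. B3GNT2, which builds poly-N-acetyllactosamine chains, was at 149 at 24 °C and 46.8 in the incubated library (1.64). KLF5, a transcription factor of early epithelia, was at 213 at 24 °C and 90.8 in the incubated library (1.22), SELENOS, a selenoprotein of endoplasmic reticulum degradation, at 109 at 24 °C and 45.6 in the incubated library (1.24), and FLNC, an actin crosslinker, at 127 at 24 °C and 55.1 in the incubated library (1.19).

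Chaperones of the cytosol were lower after storage at 24 °C than after incubation. Of 23 members compared, out of 36 listed, 8 were at least 2-fold lower (34.8%, against 10.2% of all genes) and 0 higher, and the median log2 ratio was -0.68. HSPA8, the constitutive HSP70 that folds new proteins, had FPKM of 2455 in the unstored library, 3051, 949 and 1085 after storage at 4, 16 and 24 °C, and 4199.8 in the incubated library (-1.95). HSP90AA1, the cytosolic HSP90 that matures kinases and receptors, stood at 2979.8 in the unstored library, 3672, 639 and 985 after storage at 4, 16 and 24 °C, and 4182 in the incubated library (-2.08). Their levels placed these genes at the top of the incubated library, while the libraries stored at 16 and 24 °C formed a separate low pair. The level of HSP90AA1 is a sum of 2 rows, at 1691 and 2491 FPKM in the incubated library. HSPH1, or HSP110, the nucleotide exchange factor of HSP70, showed the widest gap, with 113 in the unstored library, 139, 14.4 and 11.5 after storage at 4, 16 and 24 °C, and 123 in the incubated library (-3.31). Here the incubated library lay close to the unstored and 4 °C libraries, and the low values belonged to 16 and 24 °C alone among the 5.

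The other 5 lower members were 3 co-chaperones, a small heat shock protein and an HSP70. DNAJA1, a J-domain protein that loads clients onto HSP70, had FPKM of 38.5 in the unstored library, 44, 23.8 and 30.4 after storage at 4, 16 and 24 °C, and 117 in the incubated library (-1.91), with the incubated library above the 4 others. HSPB9, a small heat shock protein, stood at 201 in the unstored library, 214, 687 and 64.7 after storage at 4, 16 and 24 °C, and 239.9 in the incubated library (-1.87), lowest at 24 °C and highest at 16 °C. AHSA1, the activator of the HSP90 ATPase, was at 28.4 at 24 °C and 70.3 in the incubated library (-1.28), DNAJA4 at 36.5 at 24 °C and 84 in the incubated library (-1.18) and HSPA2, a further HSP70, at 107 at 24 °C and 272 in the incubated library (-1.33). FKBP4, an immunophilin of the HSP90 complex (-0.93), and HSPA4, a relative of HSPH1 (-0.64), missed 2-fold. HSF2, a heat shock transcription factor, was at 61.5 at 24 °C and 62.5 in the incubated library (-0.02), and DNAJB4 was the highest member (0.82).

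The chaperones of mitochondria and the chaperonin TRiC had negative medians too, with few members past 2-fold. HSPD1, the mitochondrial chaperonin HSP60, had FPKM of 544 in the unstored library, 605, 173 and 187 after storage at 4, 16 and 24 °C, and 432 in the incubated library (-1.2), and its partner HSPE1 of 1350.2 in the unstored library, 1404, 534 and 531 after storage at 4, 16 and 24 °C, and 958 in the incubated library (-0.85). In both genes the libraries stored at 16 and 24 °C were nearly equal and lowest. LONP1, the matrix protease, was at 30.7 at 24 °C and 66.2 in the incubated library (-1.09), while CLPX, the unfoldase of another matrix protease, was at 67.1 at 24 °C and 38.8 in the incubated library (0.77). Of 11 mitochondrial chaperones and proteases, 2 were lower (18.2%, against 10.2% of all genes) and 0 higher, with a median of -0.52, and under 3 alternatives 1 was lower. TRiC folds actin and tubulin. Of 11 TRiC and prefoldin members, CCT4 (-1.19) and CCT6A (-1.01) were lower by 2-fold or more (18.2%, against 10.2% of all genes). The median of this list was -0.48, and all 7 measured TRiC subunits had negative ratios, from -1.19 to -0.34.

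Chaperones of the endoplasmic reticulum did not share this difference in their median. Of 20 members, 3 were lower and 1 higher, and their median of -0.08 equalled that of all genes within 0.01. The lower share lay above the 10.2% of all genes, and the higher share was close to their 5.40%. HSPA5, or BiP, the HSP70 of this compartment, had FPKM of 187 in the unstored library, 203, 1334 and 321 after storage at 4, 16 and 24 °C, and 204 in the incubated library (0.65), with its peak at 16 °C. ERO1A, the oxidase that drives disulfide formation, stood at 7.88 in the unstored library, 11.6, 15.9 and 27.1 after storage at 4, 16 and 24 °C, and 12.8 in the incubated library (1.02), highest at 24 °C. DNAJC10, a disulfide reductase, was at 9.22 at 24 °C and 38 in the incubated library (-1.93) and FKBP10, a collagen prolyl isomerase, at 9.11 at 24 °C and 20.8 in the incubated library (-1.11). In the list of the unfolded protein and integrated stress response, EIF2AK3 was the 1 higher of 16 members (6.25%, against 5.40% of all genes). In it 3 members were lower (18.8%, against 10.2%). These were ATF4, the transcription factor translated when eIF2 is phosphorylated (37.5 at 24 °C and 102 in the incubated library, -1.42), MTHFD2, a mitochondrial folate enzyme (5.55 at 24 °C and 34.2 in the incubated library, -2.43), and EDEM1, which selects misfolded glycoproteins for degradation (9.61 at 24 °C and 27.4 in the incubated library, -1.42).

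**Figure D2:**
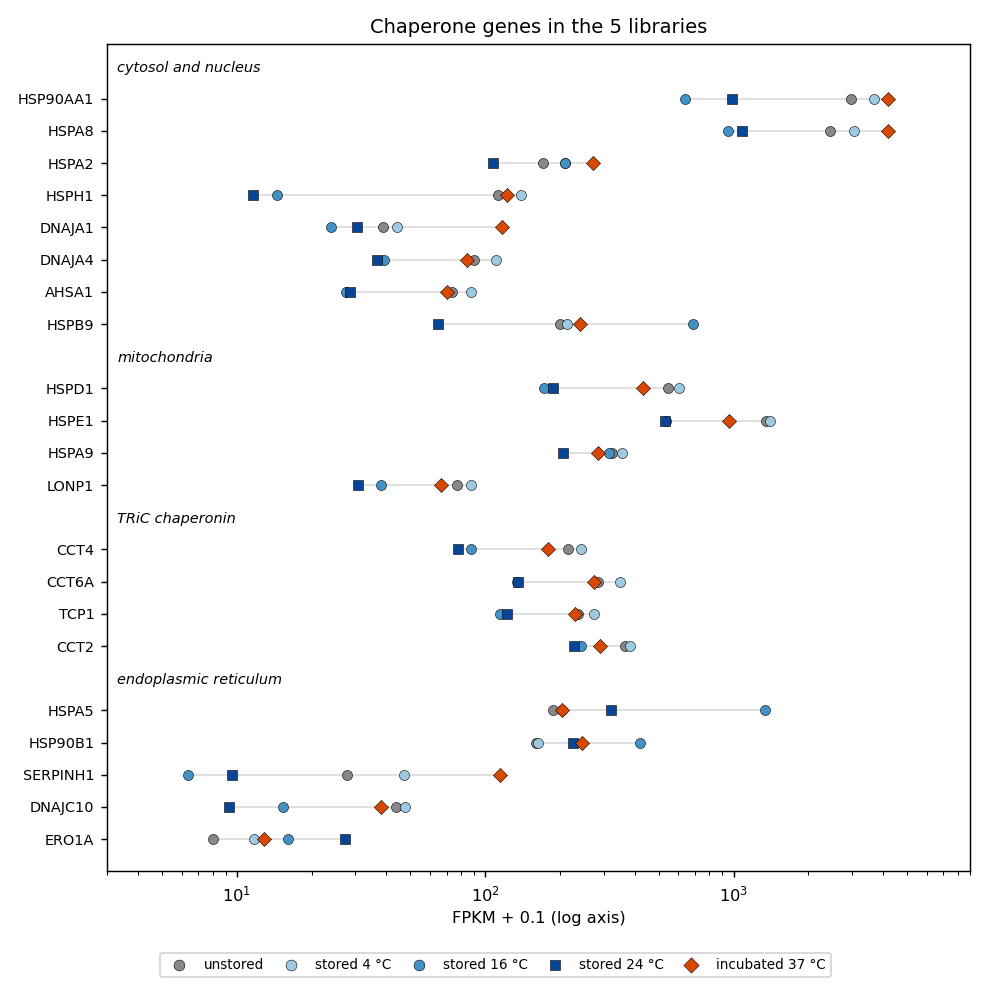
FPKM + 0.1 on a log axis for chaperone genes in the 5 libraries, 1 symbol per library, grouped by compartment. Squares (24 °C) lie to the left of diamonds (incubated) for the genes shown of the cytosol, mitochondria and TRiC, whereas HSPA5 and ERO1A have the reverse order.

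The machinery that makes ribosomes and the ribosomal proteins themselves lay on opposite sides of the all-gene median. Of 54 genes of ribosome biogenesis and the nucleolus, 13 were lower (24.1%, against 10.2% of all genes) and 0 higher, 50 of 54 had negative ratios, and the median was -0.64. The lower members numbered 8 with FPKM rescaled to 1000000 and 5 with curated accessions. WDR3, a subunit of the small-subunit processome, had FPKM of 86 in the unstored library, 94.5, 24.1 and 28.4 after storage at 4, 16 and 24 °C, and 86.3 in the incubated library (-1.57). NOL6 (-1.33), NOL10 (-1.32), NOP16 (-1.24) and the box C/D snoRNP subunit NOP56 (-1.15) followed. NCL, or nucleolin, among the most abundant members, stood at 1171 in the unstored library, 1204, 796 and 423 after storage at 4, 16 and 24 °C, and 714 in the incubated library (-0.75), lowest at 24 °C. The highest ratio was that of DKC1, the pseudouridine synthase dyskerin, at 207 at 24 °C and 129.9 in the incubated library (0.66).

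Cytosolic ribosomal proteins had a median of 0.36 over 58 genes, with 55 of 58 above 0 and none past 2-fold. RPS21 had FPKM of 219 in the unstored library, 209.7, 252 and 344 after storage at 4, 16 and 24 °C, and 183 in the incubated library (0.9), and RPS3 of 534 in the unstored library, 515, 762 and 874 after storage at 4, 16 and 24 °C, and 575 in the incubated library (0.6). In both, 24 °C was the highest of the 5 libraries. The lowest ratio was that of RPL7L1 (-0.46), a relative of RPL7. Against the shared unstored library the list median was 0.22 for 24 °C and -0.17 for incubation. Ribosomal proteins of mitochondria did not follow, with a median of -0.23 over 55 genes. Of these, 3 were lower, MRPS27 (-1.55), MRPS33 (-1.44) and MRPS6 (-1.42), and 0 higher. The lower share of 5.45% lay below the 10.2% of all genes.

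Enzymes that charge transfer RNAs with amino acids were lower after storage at 24 °C. Of 17 members, 5 were lower (29.4%, against 10.2% of all genes) and 0 higher, with a median of -0.57. EPRS, the glutamyl-prolyl synthetase, had FPKM of 77.9 in the unstored library, 86.6, 23.8 and 20.4 after storage at 4, 16 and 24 °C, and 93.2 in the incubated library (-2.14), and TARS, the threonyl synthetase, of 39.5 in the unstored library, 42.8, 15.5 and 14.7 after storage at 4, 16 and 24 °C, and 68 in the incubated library (-2.13). In both the libraries stored at 16 and 24 °C were low and the other 3 high. RARS (-1.52), QARS (-1.44) and IARS (-1.26) completed the 5, while CARS was at 35.7 at 24 °C and 18.7 in the incubated library (0.9). Among 38 initiation and elongation factors, 1 was lower and 1 higher, and the median was -0.21. Both shares were 2.63%, against 10.2% lower and 5.40% higher of all genes. The lower factor was EIF4A2, the helicase of the cap-binding complex, at 409.6 in the unstored library, 532, 154 and 97.1 after storage at 4, 16 and 24 °C, and 412 in the incubated library (-2.07). The higher was EIF4E3, a cap-binding protein, at 8.57 at 24 °C and 3.06 in the incubated library (1.24).

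**Figure D3:**
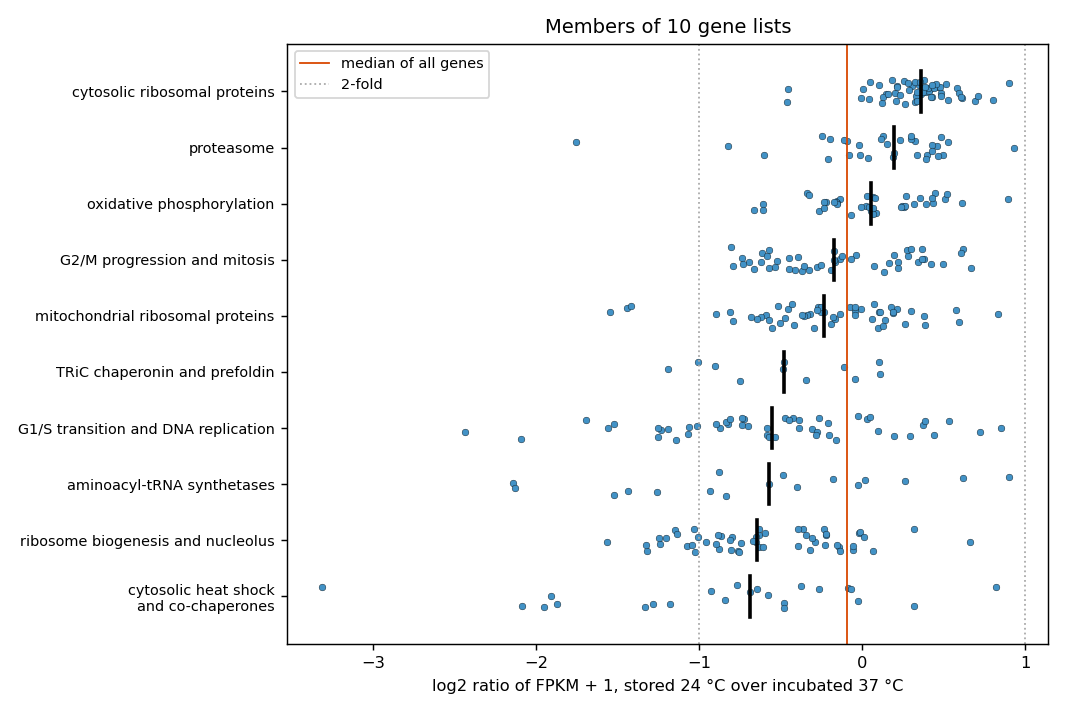
Log2 ratio of FPKM + 1, storage at 24 °C over incubation, for the members of 10 gene lists, 1 point per gene, with black bars at list medians, the orange line at the median of all genes and dotted lines at 2-fold. Cytosolic ribosomal proteins centre on 0.36, ribosome biogenesis genes on -0.64, and none of the 48 G2/M genes reaches a dotted line.

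The title of the series names a cell cycle arrest at G2/M, and the genes of cell cycle stages were set apart for that reason. Genes of the G1/S transition and DNA replication were lower after storage at 24 °C, 13 of 50 by 2-fold or more, with 0 higher and a median of -0.55. The lower share lay above the 10.2% of all genes, and the higher share below their 5.40%. CCNE1, the cyclin that starts S phase with CDK2, had FPKM of 42.1 in the unstored library, 48.8, 11.6 and 8.47 after storage at 4, 16 and 24 °C, and 50.2 in the incubated library (-2.44). RRM2, the subunit of ribonucleotide reductase that limits nucleotide supply, stood at 279 in the unstored library, 318, 48.3 and 60.3 after storage at 4, 16 and 24 °C, and 260.3 in the incubated library (-2.09). For both the incubated library was within the range of the unstored and 4 °C libraries or close to it, and 16 and 24 °C were low. CCNE2 (-1.52), the GINS helicase subunits GINS3 (-1.69) and GINS2 (-1.56), MCM3 (-1.19) and CDC25A (-1.01) were also lower. Not all of the replication machinery followed. MCM2 (0.03) and MCM5 (0.53) of the same helicase and the clamp loader subunit RFC4 (97.3 at 24 °C and 53.4 in the incubated library, 0.85) had positive ratios.

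Of the 48 listed genes of G2/M progression and mitosis that were compared, none reached 2-fold in either direction. Their 48 ratios ran from -0.81 (KIF20A) to 0.67 (NCAPD2), with a median of -0.17 against -0.09 for all genes. CDK1, the kinase that drives entry into mitosis, had FPKM of 199 in the unstored library, 219, 137 and 109 after storage at 4, 16 and 24 °C, and 132 in the incubated library (-0.27). CCNB1, its B-type cyclin, stood at 359 in the unstored library, 429, 184 and 154 after storage at 4, 16 and 24 °C, and 169 in the incubated library (-0.14). Here both compared libraries lay below the unstored and 4 °C libraries and close to each other. PLK1 (-0.32), WEE1, the inhibitory kinase of CDK1 (-0.17), and CDC20, an activator of the anaphase-promoting complex (0.28), also had small ratios. Under the alternatives at most 1 of the listed genes passed 2-fold in either direction. Mitotic genes outside the list did pass it. Examples are ANAPC2 (-2.56) and CDC16 (-1.43) of the anaphase-promoting complex and, in the other direction, ASPM (1.41) and CENPL (1.03).

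Inhibitors of the cell cycle and targets of p53 held 5 of 20 members that were higher after storage at 24 °C and 0 lower. The higher share lay above the 5.40% of all genes, and the lower share below their 10.2%. The list median was 0.096. CDKN1B, the inhibitor p27, had FPKM of 7.21 in the unstored library, 7.16, 13.2 and 12.4 after storage at 4, 16 and 24 °C, and 5.67 in the incubated library (1.0). CCNG2, a cyclin linked to exit from the cycle, stood at 34.8 in the unstored library, 29.6, 68.1 and 64.4 after storage at 4, 16 and 24 °C, and 26.9 in the incubated library (1.23). In both the libraries stored at 16 and 24 °C were high and the other 3 low. GADD45A (1.04), GADD45G (1.17) and the death receptor FAS (4.86 at 24 °C and 0.78 in the incubated library, 1.72) were the other 3. CDKN1A, the inhibitor p21, was at 7.66 at 24 °C and 9.74 in the incubated library (-0.31), and MDM2, the ubiquitin ligase of p53, at 67.7 in the unstored library, 68, 68.3 and 122 after storage at 4, 16 and 24 °C, and 117 in the incubated library (0.06), about equal in the 2 libraries compared and above the 3 others. With a pseudocount of 5 instead of 1, 1 of the 20 was past 2-fold.

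Of 51 genes of DNA repair, 11 were lower (21.6%, against 10.2% of all genes) and 1 higher (1.96%, against 5.40%). Their median was -0.37. The lower members numbered 6 with curated accessions, 5 with a mean of 5 FPKM or more and 1 with a pseudocount of 5. NBN, part of the MRN sensor of double-strand breaks, had FPKM of 8.65 in the unstored library, 9.73, 2.66 and 2.65 after storage at 4, 16 and 24 °C, and 15.8 in the incubated library (-2.21), and its partner RAD50 was at 4.59 at 24 °C and 10.6 in the incubated library (-1.05). Fanconi anaemia genes FANCA (-1.27), FANCG (-1.24), FANCB (-1.23) and FANCI (-1.01) were lower too, with levels below 25 FPKM in both libraries. The higher member was PRKDC, the kinase of end joining, at 10.1 at 24 °C and 4.43 in the incubated library (1.03).

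Apoptosis is the other process that the title names. Genes that initiate it held 4 lower members (18.2%, against 10.2% of all genes) and 1 higher (4.55%, against 5.40%) of 22, with a median of -0.31. The lower members numbered 2 with a mean of 5 FPKM or more and 1 with a pseudocount of 5. CYCS, or cytochrome c, which triggers the apoptosome once released from mitochondria, had FPKM of 442 in the unstored library, 435, 149 and 138 after storage at 4, 16 and 24 °C, and 335 in the incubated library (-1.27). CASP8, the initiator caspase of death receptors, stood at 17.3 in the unstored library, 19.9, 15.2 and 10.9 after storage at 4, 16 and 24 °C, and 24.9 in the incubated library (-1.12). The low libraries for CYCS were 16 and 24 °C, and CASP8 was lowest at 24 °C and highest after incubation. CRADD (-1.19) and ENDOG (-1.22) were the other lower members, both under 4 FPKM, and FAS was the higher one. CASP2 (6.97 at 24 °C and 12.8 in the incubated library, -0.79), the pro-apoptotic BH3-only gene BMF (-0.38) and APAF1, the core of the apoptosome (-0.13), missed 2-fold, and BAK1, a pore former of the mitochondrial membrane, was at 35.7 at 24 °C and 26.1 in the incubated library (0.44).

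Among 17 genes of the execution phase, which cleave or are cleaved late in apoptosis, 2 were lower and 2 higher. Each was a share of 11.8%, against 10.2% lower and 5.40% higher of all genes. CASP6, a caspase that cleaves lamins, had FPKM of 21.7 in the unstored library, 17.7, 35.8 and 35.4 after storage at 4, 16 and 24 °C, and 31.2 in the incubated library (0.17), short of 2-fold. The lower members were the lamin substrates LMNB1 and LMNB2 (57.6 at 24 °C and 138 in the incubated library, -1.24). The higher were CIDEA, a CIDE family protein of lipid droplets (24 at 24 °C and 7.83 in the incubated library, 1.5), and the calpain CAPN2 (5.55 at 24 °C and 1.62 in the incubated library, 1.32). Of 11 anti-apoptotic genes BCL2 was higher (8.28 at 24 °C and 3.18 in the incubated library, 1.15) and FAIM lower (1.18 at 24 °C and 5.43 in the incubated library, -1.56), and the list median was 0.07. Both anti-apoptotic shares were 9.09%, against 5.40% higher and 10.2% lower of all genes.

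Of 28 autophagy genes, 5 were higher (17.9%, against 5.40% of all genes) and 4 lower (14.3%, against 10.2%), with a median of 0.02. With a pseudocount of 5 these counts were 2 and 1. SQSTM1, or p62, the receptor that carries ubiquitinated cargo to autophagosomes, had FPKM of 35.6 in the unstored library, 39.8, 143 and 193 after storage at 4, 16 and 24 °C, and 65.6 in the incubated library (1.55). This level is a sum of 4 rows that differ in their ratios. The largest row stood at 125 at 24 °C and 50.8 in the incubated library. The others were at 46.2 and 10.05, 17.5 and 0.1, and 4.57 and 4.59 in the same order. MAP1LC3B, a ubiquitin-like coat protein of the autophagosome, stood at 38.3 in the unstored library, 37.6, 94.8 and 76.3 after storage at 4, 16 and 24 °C, and 36.7 in the incubated library (1.04), and MAP1LC3A was at 35.7 at 24 °C and 14.8 in the incubated library (1.22). The libraries stored at 16 and 24 °C were the high ones for all 3 genes. The cargo receptor OPTN (1.08) and ATG9A, the scramblase of the growing membrane (1.08), made up the 5. The lower members were ATG10 (-1.41) and ATG3 (-1.06), enzymes of the conjugation system, with VMP1 (-1.17) and PIK3R4 (-1.19), which act in autophagosome formation.

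Lysosomal genes had a median of 0.06 over 36 members, 1 higher and 1 lower. Either share was 2.78%, against 5.40% higher and 10.2% lower of all genes. NPC1, which exports cholesterol from lysosomes, had FPKM of 15.6 in the unstored library, 18, 35.1 and 57.9 after storage at 4, 16 and 24 °C, and 18.3 in the incubated library (1.61). PPT1, a thioesterase, was at 4.64 at 24 °C and 15.8 in the incubated library (-1.58). LAMP1, a membrane protein of lysosomes, stood at 122 in the unstored library, 166, 354 and 416 after storage at 4, 16 and 24 °C, and 236 in the incubated library (0.82) and PSAP, the precursor of saposins, at 505 at 24 °C and 279 in the incubated library (0.85), both short of 2-fold. The proteasome had a median of 0.20 over 32 genes. Its 1 lower member was PSMG3, an assembly chaperone (6.68 at 24 °C and 25 in the incubated library, -1.76), and the other assembly chaperones PSMG2 (-0.82) and PSMG1 (-0.6) were the next lowest. The proteasome share lower was 3.12%, against 10.2% of all genes.

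Of 19 genes of the epiblast, 4 were lower after storage at 24 °C by 2-fold or more (21.1%, against 10.2% of all genes). The list held 0 higher members, and its median was -0.25. LIN28A, an RNA-binding protein that blocks let-7 maturation, had FPKM of 59.5 in the unstored library, 64.4, 14.2 and 21 after storage at 4, 16 and 24 °C, and 88.1 in the incubated library (-2.02). DNMT3B, the DNA methyltransferase of the early embryo, stood at 517 in the unstored library, 466, 219 and 129.8 after storage at 4, 16 and 24 °C, and 352 in the incubated library (-1.43). SALL4, a zinc finger factor of pluripotent cells, was at 174 in the unstored library, 259, 57.8 and 121 after storage at 4, 16 and 24 °C, and 307 in the incubated library (-1.34). All 3 were lower in the libraries stored at 16 and 24 °C than in the other 3. SALL1 (-1.21) was the remaining lower member, while NANOG (-0.67) and SOX3 (-0.5) missed 2-fold and EPCAM (0.07) and CDH1 (-0.00) were nearly equal. Of 14 genes of neural plate and non-neural ectoderm none passed 2-fold, with a median of 0.04.

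Genes of hypoblast and endoderm included 5 lower (38.5%, against 10.2% of all genes) and 1 higher (7.69%, against 5.40%) of 13. Their median was -0.22, and 2 were lower with a pseudocount of 5. HNF4A, a nuclear receptor of endoderm, had FPKM of 0.83 in the unstored library, 5.69, 1.08 and 4.08 after storage at 4, 16 and 24 °C, and 26.3 in the incubated library (-2.42), and the incubated library stood above the 4 others. CER1, a secreted inhibitor of Nodal, was at 0.24 in the unstored library, 1.49, 0.19 and 3.3 after storage at 4, 16 and 24 °C, and 8.18 in the incubated library (-1.09), with the 2 libraries compared highest. FOXA2, a pioneer factor of endoderm and axial mesoderm, stood at 12.2 in the unstored library, 29.5, 9.56 and 15.4 after storage at 4, 16 and 24 °C, and 33.6 in the incubated library (-1.08), where the 4 °C library lay close to the incubated library. FRZB, a secreted WNT antagonist (-2.02), and the chemokine receptor CXCR4 (-1.12) were also lower. HHEX, a homeobox repressor found in anterior endoderm, was the higher member, at 8.53 in the unstored library, 18.7, 12.7 and 16.2 after storage at 4, 16 and 24 °C, and 6.44 in the incubated library (1.21). SOX17 was at 12.8 at 24 °C and 15.1 in the incubated library (-0.22) and APOA1, an apolipoprotein, at 21.4 in the unstored library, 46.6, 113 and 198 after storage at 4, 16 and 24 °C, and 103 in the incubated library (0.93), highest at 24 °C. Against the unstored library the median of the list was 0.64 at 24 °C and 0.41 after incubation.

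Of 31 primitive streak and mesoderm genes, 10 were lower after storage at 24 °C (32.3%, against 10.2% of all genes). The list held 1 higher member (3.23%, against 5.40%), and its median was -0.47. The lower members numbered 6 with a mean of 5 FPKM or more and 3 with a pseudocount of 5. The members differed among themselves. TBXT, or brachyury, the transcription factor of the streak and notochord, had FPKM of 4.97 in the unstored library, 8.72, 9.27 and 27.5 after storage at 4, 16 and 24 °C, and 23.6 in the incubated library (0.21). Its level was about equal in the 2 libraries compared and above the other 3. EOMES, a T-box factor of mesendoderm, stood at 14.2 in the unstored library, 30.7, 4.91 and 2.46 after storage at 4, 16 and 24 °C, and 17.2 in the incubated library (-2.39), lowest at 24 °C. SNAI1, a repressor of E-cadherin in cells that leave the epiblast, was at 10.7 in the unstored library, 20.8, 16.4 and 15.8 after storage at 4, 16 and 24 °C, and 42.8 in the incubated library (-1.39), and the incubated library stood above the 4 others. WNT5A, a ligand that guides cell movement, had 30.1 in the unstored library, 34.3, 14 and 17.5 after storage at 4, 16 and 24 °C, and 57.3 in the incubated library (-1.66). WNT11 (-1.59), WNT5B (-1.03), APLNR (-1.0) and the low genes KDR, CDX4 and HAND1 were also among the 10. GSC (-0.21) and MIXL1 (-0.1) were low in both libraries with small ratios. FGF8, a growth factor of the streak, was the higher member, at 16.9 in the unstored library, 20.5, 16.7 and 17.8 after storage at 4, 16 and 24 °C, and 7.75 in the incubated library (1.1), lowest after incubation.

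**Figure D4:**
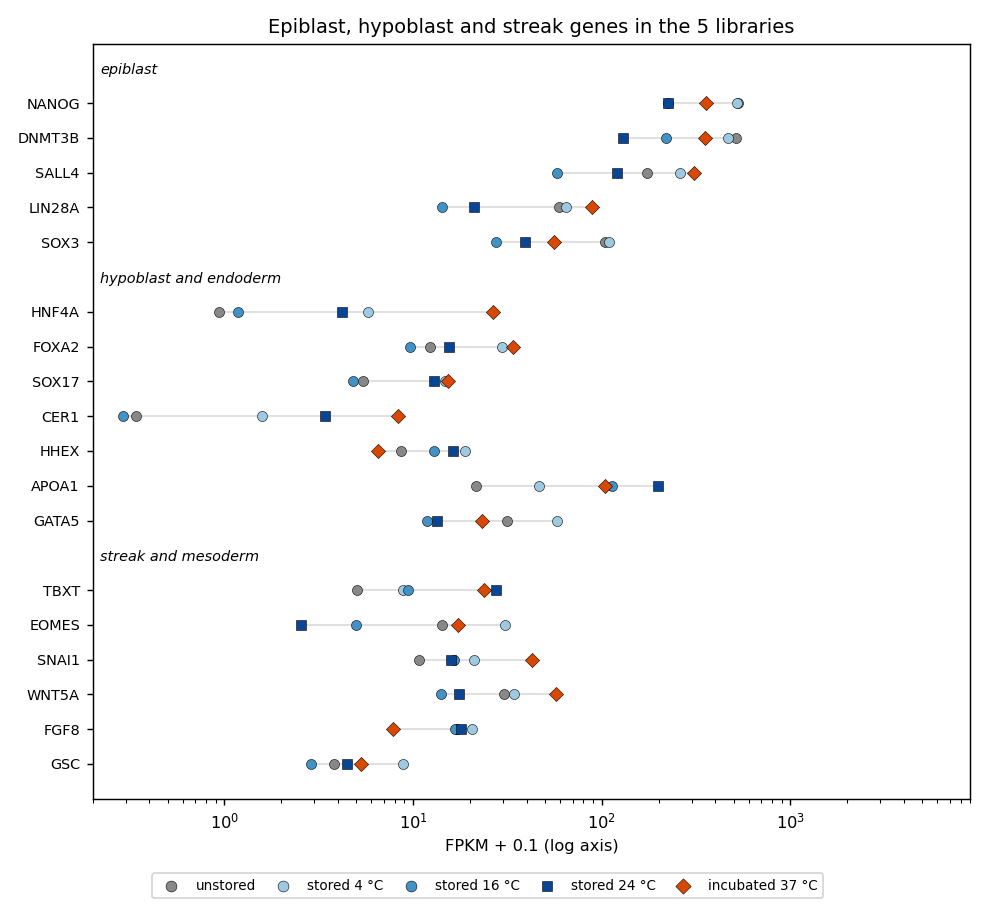
FPKM + 0.1 on a log axis for genes of epiblast, hypoblast and endoderm, and streak and mesoderm in the 5 libraries, 1 symbol per library. Diamonds (incubated) lie right of squares (24 °C) for the epiblast genes, HNF4A, SNAI1 and WNT5A, nearly coincide with them for TBXT, and lie left of them for FGF8, HHEX and APOA1.

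Of 37 WNT genes 8 were lower (21.6%, against 10.2% of all genes) and 3 higher (8.11%, against 5.40%). Their median was -0.26, and with a pseudocount of 5 these counts were 3 and 0. Besides the ligands above, the secreted antagonist SFRP1 (10.2 at 24 °C and 39.7 in the incubated library, -1.86), the effector TCF7 (-1.29), the receptor FZD2 (-1.25) and WNT9A (-1.09) were lower. RNF43, a ligase that removes WNT receptors (8.06 at 24 °C and 2.64 in the incubated library, 1.32), AMER1 (4.04 at 24 °C and 0.46 in the incubated library, 1.79) and FZD6 (1.09) were higher. In Nodal, activin and BMP signalling 3 of 38 were lower, the ligand subunit INHBB (-1.72), the pseudoreceptor BAMBI (-1.58) and CER1, and 0 higher, a share of 7.89% that lies below the 10.2% of all genes. FGF genes had a median of 0.25 over 18, with FGF8 higher and IL17RD, a feedback inhibitor (1.56 at 24 °C and 6.0 in the incubated library, -1.45), lower. Both FGF shares were 5.56%, against 5.40% higher and 10.2% lower of all genes.

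Immediate early genes and DUSP phosphatases respond within minutes to growth factors and stress. Of 29 members, 10 were higher (34.5%, against 5.40% of all genes) and 3 lower (10.3%, against 10.2%). The list median was 0.51. With curated accessions 6 were higher. FOS, a subunit of AP-1, had FPKM of 16.8 in the unstored library, 17.2, 48.9 and 25 after storage at 4, 16 and 24 °C, and 9.28 in the incubated library (1.34). DUSP1, a phosphatase that switches off MAP kinases, stood at 18.4 in the unstored library, 18.9, 97.1 and 18.1 after storage at 4, 16 and 24 °C, and 6.24 in the incubated library (1.4). FOSL2, another AP-1 subunit, was at 76.7 in the unstored library, 53.4, 117 and 89.8 after storage at 4, 16 and 24 °C, and 33.6 in the incubated library (1.39). In all 3 the incubated library was the lowest of the 5 and the library stored at 16 °C the highest, and for DUSP1 the 24 °C, unstored and 4 °C libraries were nearly equal. DUSP8 (1.59), MAFF (1.3), MAFK (1.15), KLF10 (1.23), KLF5, CCN2 (1.05) and CSRNP1 (1.03) were the other higher members. EGR1 was at 4.19 at 24 °C and 4.47 in the incubated library (-0.08) and JUN at 52.7 in the unstored library, 55.4, 549 and 64.2 after storage at 4, 16 and 24 °C, and 47.4 in the incubated library (0.43). The lower members were SGK1, a serum-induced kinase (-1.51), MYC (25.3 at 24 °C and 57.8 in the incubated library, -1.16) and DUSP5 (-1.11).

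Of 6 genes of the cold response, 1 was higher (16.7%, against 5.40% of all genes), the splicing factor SRSF5. RBM3, an RNA-binding protein induced by mild cooling, had FPKM of 299 in the unstored library, 206, 246 and 176 after storage at 4, 16 and 24 °C, and 101 in the incubated library (0.8), lowest after incubation and highest in the unstored library. SRSF5 stood at 37.2 in the unstored library, 28.3, 53.6 and 55.4 after storage at 4, 16 and 24 °C, and 13.5 in the incubated library (1.96), lowest after incubation too. It was also the 1 higher member of 67 splicing factors (1.49%, against 5.40% of all genes). In that list 4 members were lower (5.97%, against 10.2%). They were SRSF7 (7.83 at 24 °C and 60.4 in the incubated library, -2.8), SF3B3 (53.7 at 24 °C and 154 in the incubated library, -1.51), SRSF6 (-1.35) and U2SURP (-1.0). Among 12 clock genes 2 were higher (16.7%, against 5.40% of all genes) and 1 lower (8.33%, against 10.2%). CSNK1D, a kinase of PER proteins (8.0 at 24 °C and 2.3 in the incubated library, 1.45), was among the higher, and the related kinase CSNK1E (22.9 at 24 °C and 91.2 in the incubated library, -1.95) was the lower one. ARNTL, the positive factor BMAL1, was at 24.4 at 24 °C and 12.6 in the incubated library (0.9) and PER2 at 16.4 at 24 °C and 10.1 in the incubated library (0.65).

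Metabolic genes were described by pathway. Glycolysis and the citrate cycle had 6 lower (15.4%, against 10.2% of all genes) and 1 higher (2.56%, against 5.40%) of 39, with a median of -0.44. HK2, the hexokinase bound to mitochondria, had FPKM of 40.1 in the unstored library, 58.8, 15.5 and 18.2 after storage at 4, 16 and 24 °C, and 70.8 in the incubated library (-1.9), highest after incubation. The isocitrate dehydrogenases IDH2 (-1.43) and IDH3B (-1.38), the pyruvate dehydrogenase kinase PDK1 (22.9 at 24 °C and 55.7 in the incubated library, -1.25) and the glucose carriers SLC2A1 (35.2 at 24 °C and 74.8 in the incubated library, -1.07) and SLC2A14 (240.2 at 24 °C and 496 in the incubated library, -1.04) were the others, while ENO2 was higher (5.42 at 24 °C and 1.51 in the incubated library, 1.35). GAPDH (0.18) and ENO1 (-0.26) had small ratios of opposite sign. The 41 genes of oxidative phosphorylation had a median of 0.05, and none passed 2-fold.

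Carriers of amino acids and sugars held 6 lower of 24 and 0 higher, and 3 lower with median-ratio size factors. The 6 lower members were a share above the 10.2% of all genes, and the higher share lay below their 5.40%. The list median was -0.27. SLC7A5, the large neutral amino acid carrier, stood at 84.4 in the unstored library, 109, 41.6 and 42.9 after storage at 4, 16 and 24 °C, and 115 in the incubated library (-1.4), and SLC1A3, a glutamate carrier, at 0.53 in the unstored library, 1.59, 0.6 and 3.14 after storage at 4, 16 and 24 °C, and 14.8 in the incubated library (-1.93). The incubated library was the highest of the 5 for each. Lipid synthesis had 6 lower (26.1%, against 10.2% of all genes) and 1 higher (4.35%, against 5.40%) of 23. These included the fatty acid desaturases FADS1 (6.4 at 24 °C and 26 in the incubated library, -1.87) and FADS2 (-1.68), and HMGCS1 (20.5 at 24 °C and 54 in the incubated library, -1.36) and DHCR7 (-1.8) of cholesterol synthesis, and the higher gene was INSIG1, which retains the SREBP machinery (19.9 at 24 °C and 7.57 in the incubated library, 1.29). In the antioxidant list PRDX3, the mitochondrial peroxiredoxin, had FPKM of 21.3 in the unstored library, 28.8, 4.7 and 0.28 after storage at 4, 16 and 24 °C, and 10.9 in the incubated library (-3.21), far below the 4 other libraries at 24 °C. NNT, which supplies mitochondrial NADPH (6.54 at 24 °C and 48.4 in the incubated library, -2.71), and HMOX2 (-1.52) were also lower, and CAT, or catalase, and MSRB3 (1.14) were higher, of 30 members. The 3 lower members were a share close to the 10.2% of all genes. The 2 higher members made up 6.67%, against 5.40% of all genes.

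Of 36 genes of the extracellular matrix, 9 were lower after storage at 24 °C (25%, against 10.2% of all genes) and 1 higher (2.78%, against 5.40%), with a median of -0.35. The lower members numbered 4 with a pseudocount of 5, and the higher 3 with one of 0.1. THBS1, or thrombospondin, had FPKM of 23.3 in the unstored library, 25.6, 11.2 and 9.8 after storage at 4, 16 and 24 °C, and 35 in the incubated library (-1.74). COL1A2, a collagen I chain that is a client of SERPINH1, stood at 4.79 in the unstored library, 7.28, 4.74 and 9.44 after storage at 4, 16 and 24 °C, and 23.2 in the incubated library (-1.22), and LAMA1, the laminin chain of the embryonic basement membrane, at 65.4 in the unstored library, 83.2, 30.2 and 38 after storage at 4, 16 and 24 °C, and 82.9 in the incubated library (-1.11). For all 3 the incubated library was the highest or level with the highest. VCAN (-1.6), COL4A6 (-1.55), ADAM19 (-1.46), TIMP2 (-1.14), MMP16 (-1.12) and FBN2 (-1.08) completed the 9. FBLN1, or fibulin, was higher, at 7.44 in the unstored library, 10.5, 30.8 and 76.9 after storage at 4, 16 and 24 °C, and 30.0 in the incubated library (1.33), and FN1, or fibronectin, was at 44.8 in the unstored library, 58.4, 71.6 and 109.8 after storage at 4, 16 and 24 °C, and 135 in the incubated library (-0.3), highest in the 2 libraries compared. Of 29 integrin and junction genes 3 were lower (10.3%, near the 10.2% of all genes) and 0 higher. The lower genes were the gap junction protein GJA1 (-2.23), the desmosomal cadherin DSG2 (-1.47) and the integrin ITGA9 (-1.46). GJA1 stood at 37 in the unstored library and at 42, 7.09 and 19.1 after storage at 4, 16 and 24 °C. In the incubated library it was at 93.5.

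Some genes set the library stored at 24 °C apart from all 4 others. DIO2, the enzyme that activates thyroid hormone, had FPKM of 9.67 in the unstored library, 9.99, 5.34 and 62 after storage at 4, 16 and 24 °C, and 24.5 in the incubated library (1.3), and S100A6, a calcium-binding protein, of 11.3 in the unstored library, 7.72, 14.6 and 50.0 after storage at 4, 16 and 24 °C, and 13.6 in the incubated library (1.8). TRIM2 (46.7 at 24 °C and 16.5 in the incubated library, 1.44), TAPBP, or tapasin (10.2 at 24 °C and 1.94 in the incubated library, 1.93), and the protease inhibitor CSTA (12.5 at 24 °C and 2.51 in the incubated library, 1.94) also had their highest level at 24 °C. Below all others at 24 °C were HDAC2, a histone deacetylase, with 176 in the unstored library, 207, 83.8 and 36.4 after storage at 4, 16 and 24 °C, and 123 in the incubated library (-1.72), RBM19, a factor of ribosome assembly (12.2 at 24 °C and 31.2 in the incubated library, -1.29), DHTKD1 (2.83 at 24 °C and 9.65 in the incubated library, -1.48), RSPRY1 (1.09 at 24 °C and 8.48 in the incubated library, -2.18) and LONRF3 (0.23 at 24 °C and 5.27 in the incubated library, -2.35), besides PRDX3, HSPB9 and LRWD1.

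Other genes set the incubated library apart. MERTK, a receptor for the uptake of dying cells, had FPKM of 31.8 in the unstored library, 35, 29.7 and 32.4 after storage at 4, 16 and 24 °C, and 9.37 in the incubated library (1.69), with the 4 other libraries nearly level. TM7SF3 (14.2 at 24 °C and 3.93 in the incubated library, 1.62), BORCS6, a subunit of the complex that positions lysosomes (18.2 at 24 °C and 6.0 in the incubated library, 1.45), and C6orf132 (9.71 at 24 °C and 3.6 in the incubated library, 1.22) were likewise lowest there. Highest there, besides HNF4A, SLC1A3 and TRPV6, were MOGAT2, an enzyme of triglyceride synthesis (1.75 at 24 °C and 17.5 in the incubated library, -2.75), CALD1, or caldesmon (2.46 at 24 °C and 9.65 in the incubated library, -1.62), and CPLX1, or complexin (0.5 at 24 °C and 5.62 in the incubated library, -2.14). Genes listed at 0 in the incubated library included AP2B1, NTN4 and RBPJ. After storage at 24 °C AP2B1, an adaptor of clathrin coats, was at 7.16 FPKM and NTN4 at 2.14. RBPJ, the DNA-binding factor of Notch signalling, was at 1.57. AP2B1 was also listed at 0 in the unstored and 4 °C libraries, and RBPJ in the 4 °C library. WDYHV1, USP38 and RSRP1 were listed at 0 at 24 °C and stood at 7.65, 7.27 and 6.82 FPKM after incubation. USP38 was also listed at 0 in the unstored and 16 °C libraries.

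Markers of tissues other than the blastoderm were low but not silent. Of the egg white list, 4 of 6 members compared were higher at 24 °C (66.7%, against 5.40% of all genes). They were AVD, or avidin (2.02), TF, or ovotransferrin (14.6 at 24 °C and 3.44 in the incubated library, 1.81), SPP1 (1.38) and PTGDS (1.08). AVD stood at 2.59 in the unstored library and at 1.76, 6.24 and 11.6 after storage at 4, 16 and 24 °C. In the incubated library it was at 2.09. BPIFB3 was lower (-1.55). The summed FPKM of this list was 44.6 at 24 °C and 26.2 in the incubated library, against 16.1, 15.2 and 19.4 in the unstored, 4 °C and 16 °C libraries. Its defining gene OVAL, or ovalbumin, was at 0.05 and 0.02 FPKM, OVALY was listed at 0 in all 5 libraries and LYZ was at 0.76 and 0.2. White blood cell markers summed to 101 and 74.0, with PTPRC at 1.07 and 0.49 FPKM and with LCP1 (1.54) and CYBB (1.22) higher and CD40 (-1.99) lower at 24 °C. Of 10 such markers compared, the 2 higher were a share above the 5.40% of all genes. The 1 lower was a share close to their 10.2%, and the list median was -0.04. Of 4 erythroid genes TFRC (-1.68) and LMO2 (-1.28) were lower (50.0%, against 10.2% of all genes). The globin genes HBE and HBBR were below 10 FPKM in both libraries, with HBBA and HBE1 listed at 0. Muscle and neuron markers summed to 33.0 and 52.0, with NEFM (1.33 at 24 °C and 14 in the incubated library, -2.69) and NEFL (-1.1) lower. These made up 16.7% of 12 compared, against 10.2% of all genes. No germ cell or oocyte marker passed 2-fold. The part of such cells in the differences of other lists was not tested.

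The unstored library shows from which side some differences came. The 24 °C and incubated libraries share it as their reference in what follows, so their ratios are not independent. All genes had a median of 0.04 at 24 °C and 0.12 after incubation. Cytosolic chaperones had medians of -0.64 and 0.19, G1/S genes of -0.59 and -0.12, and tRNA synthetases of -0.64 and -0.07. In these lists the library stored at 24 °C lay farther from the unstored library. Extracellular matrix genes had 0.18 and 0.81, and streak genes 0.27 and 0.60, where the incubated library lay farther away.

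**Figure D5:**
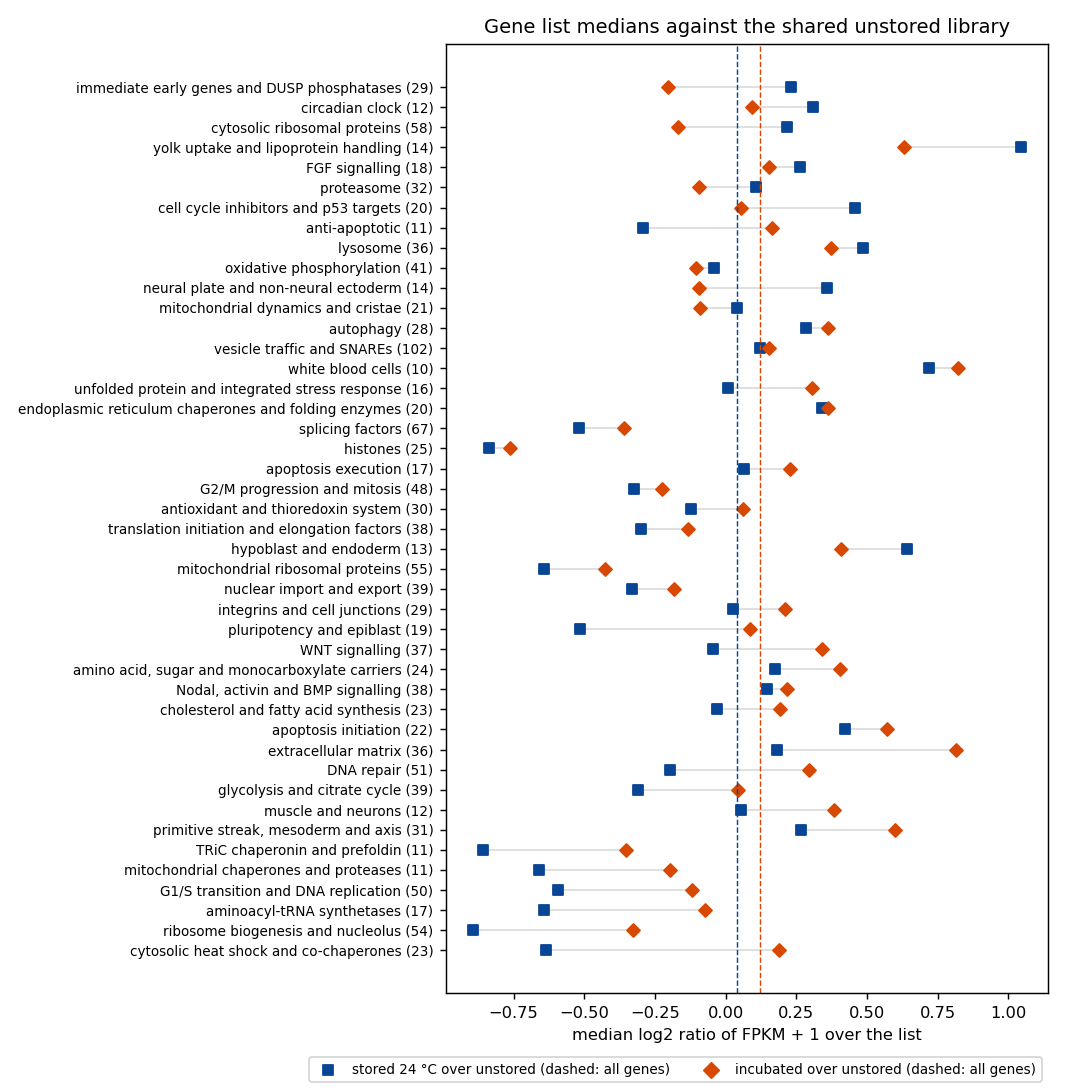
Median log2 ratio of FPKM + 1 against the unstored library for lists with 10 or more genes compared (number in brackets), ordered by the ratio of 24 °C to incubated, with dashed lines at the medians of all genes. In the lowest lists squares (24 °C) lie well below 0 while diamonds (incubated) stay nearer to it. Extracellular matrix, streak, white blood cell, yolk uptake and apoptosis initiation genes have diamonds above 0.5.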

How the data were processed

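RNA of whole blastoderms was measured in 5 libraries, 1 per condition, of which 2 are compared here. The authors deposited FPKM values with 2 decimals for 32188 rows of RefSeq transcript accessions, per the file headers. The submitters' processing notes list the tools TopHat2 2.0.8 and Cufflinks 2.0.2 with the genome galGal4, but no roles. The sources used here give no read depth, annotation release or scaling between libraries, so no interval was computed.

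Accessions without version were matched to symbols in a RefSeq table of GRCg7b, a different build, and none of its coordinates were used. A symbol was found for 12609 rows (39.2%), in 636 cases through the identical version. Summing gave 10102 genes, and 8510 rest on 1 row. Isoforms with no match are missing from the sums, so changed isoform use can look like a changed gene level, and gene families such as histones share reads. HSP90AA1 sums 2 rows of 1 accession. Genes at 1 FPKM or more in any library were kept (7733), and 7702 had FPKM above 0 in both libraries. Ratios are log2(FPKM + 1). The counting was tested on simulated data (Python 3.11.15, pandas 2.3.3, numpy 2.4.6).

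The comparison and the 49 gene lists were chosen with earlier results of these data known. Named genes have a symbol, FPKM above 0 in both libraries and 5 or more in 1. They are the 12 highest and 12 lowest ratios, 8 and 8 at 100 FPKM or more, 8 and 8 where either library differs most from the 4 others, up to 4 per list with the members needed to describe it, and 3 genes listed at 0 in each. Not every gene of the rule is named, and some results are not reported here. After values were seen, 9 list entries were removed because a symbol had matched another gene or role. Lists overlap. Alternatives were pseudocounts of 0.1 and 5, no filter, a mean of 5 FPKM, size factors, FPKM rescaled to 1000000, the highest row, 1 accession and curated accessions. A planned search of promoters for heat shock motifs was not run, and sequences are not analysed here.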

Additional observations from a re-analysis of the deposited data

Results flagged for a closer look

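Transcript rows without a gene symbol lie outside the comparison above, and they too differed between the libraries. Of 19579 such rows, 8554 reached 1 FPKM in a library and 8178 had FPKM above 0 in both libraries compared. Of these, 790 (9.66%) were at least 2-fold higher after storage at 24 °C and 859 (10.5%) were at least 2-fold lower, with a median log2 ratio of 0.01. The rows are single transcripts and not sums per gene, so their shares are not on the same footing as the 5.40% and 10.2% of named genes.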

How the results depend on the processing

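The number of genes at least 2-fold higher was 680 with a pseudocount of 0.1, 121 with one of 5, 790 with FPKM rescaled to 1000000 and 205 with curated accessions, against 416. The number lower was 332 with a pseudocount of 5 and 400 with curated accessions, against 785. Lower genes outnumbered higher ones under each of the 9 alternatives. Of genes past 2-fold, 34.6% were higher in the comparison as reported and between 26.7% and 47.3% under the alternatives. Without the filter on low values, the counts of genes and of list members past 2-fold could not change. A gene below 1 FPKM in every library cannot reach 2-fold with a pseudocount of 1. Of 438 list medians recomputed, 2, both of the egg white list, moved by more than 1.5-fold (0.58 on the log2 scale) and kept their sign. This tolerance is wide against most medians. The sign changed in 15, from 9 of 49 lists. The median of 4 erythroid genes reversed to 0.40 under rescaling, from -0.52, which is also a shift of more than 1.5-fold. The other 8 lists had medians within 0.16 of 0. Ratios were also recomputed for the genes named for an extreme ratio or for a library that differs most from the 4 others. None of these 504 ratios changed sign, and 48 moved. Such genes were picked for large ratios, so a kept sign says little. The genes named only as list members were not recomputed. Of 882 counts of list members past 2-fold, 93 moved by more than 1.5 times. Lower members ranged from 6 to 11 for cytosolic heat shock, 1 to 12 for DNA repair, 3 to 12 for the streak list, 4 to 12 for extracellular matrix and 5 to 13 for ribosome biogenesis. Depth is unknown, so differences among genes of a few FPKM are the least certain. No paired analysis was possible because each condition has 1 library, which also left no replicate to leave out.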

Other observations

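Genes of innate RNA sensing stood among the highest ratios of storage at 24 °C to incubation. IFIH1, or MDA5, a sensor of double-stranded RNA, had FPKM of 1.31 in the unstored library, 0.83, 2.48 and 5.43 after storage at 4, 16 and 24 °C, and 0.56 in the incubated library (2.04). ZC3HAV1, the zinc finger antiviral protein, stood at 8.67 in the unstored library, 7.78, 16.1 and 37.7 after storage at 4, 16 and 24 °C, and 8.3 in the incubated library (2.06). In both the library stored at 24 °C was the highest of the 5. No list of such genes was compared.

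Genes of the W chromosome, which hens carry and cocks lack, can vary with the share of female embryos in a library. HINTW was at 45.3 in the unstored library, 24, 33.5 and 75 after storage at 4, 16 and 24 °C, and 16.6 in the incubated library (2.11), and ATP5F1AW, the W copy of an ATP synthase subunit, at 64.2 in the unstored library, 47.5, 32.1 and 45.8 after storage at 4, 16 and 24 °C, and 24.2 in the incubated library (0.9). Both have a related copy on the Z chromosome with which they may share reads. The sources used here do not state the sexes of the embryos.

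Vesicle traffic and SNARE genes had a median of -0.00 over 102 members. Of these, 3 were higher (2.94%, against 5.40% of all genes) and 7 lower (6.86%, against 10.2%). STX7, a syntaxin of late endosomes, had FPKM of 4.16 in the unstored library, 5.16, 36.1 and 43.5 after storage at 4, 16 and 24 °C, and 14.8 in the incubated library (1.49), and SEC31A, an outer coat subunit of COPII vesicles, of 121 in the unstored library, 142, 92.8 and 67.2 after storage at 4, 16 and 24 °C, and 193 in the incubated library (-1.51). Of 21 genes of mitochondrial dynamics and cristae, APOO, a subunit of the cristae complex MICOS, was lower (1.69 at 24 °C and 15.8 in the incubated library, -2.64), and VDAC1 (63.6 at 24 °C and 31.1 in the incubated library, 1.01) and the mitophagy receptor BNIP3 (25.8 at 24 °C and 12.2 in the incubated library, 1.02) were higher. The shares were 4.76% lower, against 10.2% of all genes, and 9.52% higher, against 5.40%. Nuclear import and export genes had 2 lower of 39 (5.13%, against 10.2% of all genes), XPO4 (-1.4) and KPNA2 (-1.05), with a median of -0.24. Of 25 histone genes none passed 2-fold, and poly(A) selection removes most histone RNA that lacks a poly(A) tail. The yolk uptake list had a median of 0.32 over 14 members, 9 of them above 0. In it 2 were higher (14.3%, against 5.40% of all genes) and 2 lower (14.3%, against 10.2%). The higher were TF (1.81), also a member of the egg white list, and NPC1 (1.61). The lower were LRP1 (67.6 at 24 °C and 157 in the incubated library, -1.2) and DIO3 (0.99 at 24 °C and 3.33 in the incubated library, -1.12). DIO3 inactivates thyroid hormone, so the lower share does not describe yolk uptake alone.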
